A study of Mus musculus with 12 samples.

Results

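Parp9, Parp10, Parp11, Parp12, Parp14, Dtx3l and Zc3hav1 are interferon-responsive genes of ADP-ribose biology. They were taken as a list of 7 genes, found by symbol among the 48526 gene rows of each file, and all 7 passed the filter on low counts in every comparison. The list was chosen by fold changes measured in these data, since Parp14 and Dtx3l had been seen as the weakest interferon genes after loss of Kat2a and Kat2b. The difference between knockout and control in input RNA is therefore given here as a description without a test. The stated reason does not name the kind of library, so p-values of Parp14 and Dtx3l between genotypes in the pulldowns are not independent of the choice either.

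The study asked whether double-stranded RNA is enriched in mouse intestinal epithelium that lacks the acetyltransferases Kat2a and Kat2b. It holds 12 libraries from 4 female mice aged 3 months, with 2 animals per genotype and 3 libraries per animal. The double knockout (DKO) was induced by daily intraperitoneal tamoxifen at 100 mg/kg for 4 days in ethanol and corn oil, and control animals received this solvent alone. Epithelium of the proximal part of the small intestine was released with EDTA 2 days after the last injection. From each animal an unselected input library and 2 pulldowns were sequenced, made with the J2 and K1 antibodies, which bind double-stranded RNA regardless of sequence. The labels name neither the Cre driver nor the deleted exons, and the genotype and tamoxifen cannot be told apart. J2, K1 and input of an animal come from the same tissue, so the comparisons below share animals. In comparisons between genotypes the p-values measure the spread between 2 animals per genotype. Comparisons between kinds of library pooled the spread over both genotypes, so p-values in control also carry the spread of the DKO animals. Unless the animal is named as a block, they treated libraries of the same animal as independent.

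PARP enzymes transfer ADP-ribose from NAD+ to proteins and nucleic acids, and the members induced by interferon mostly add single ADP-ribose units. PARP10, PARP11, PARP12 and PARP14 are such mono-ADP-ribosyltransferases. PARP9 works in a complex with the ubiquitin ligase DTX3L, and the gene Zc3hav1 encodes ZAP (PARP13), an enzymatically inactive relative that binds CpG-rich RNA and directs it to decay. Interferons are released when sensors meet double-stranded RNA, and they raise transcription of these genes through STAT and IRF factors in many tissues, the gut epithelium included.

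Input libraries held 10307281 to 11474107 gene counts and control pulldowns 13308021 to 16139531, whereas DKO pulldowns held 5826361 and 2691285 (J2) and 5559033 and 2220291 (K1). The 10 most abundant genes took 24.7 to 33.6% of the counts in DKO pulldowns and 6.57 to 7.67% in control pulldowns. Reads aligned to several places made up 15.8 to 46.7% of the listed reads in DKO pulldowns, most in the second DKO animal, and 5.54 to 8.05% in the other libraries. Replicates correlated at 0.983 to 0.989 (Pearson, log2 CPM across genes) in input and in control pulldowns, but at 0.850 in DKO J2 and 0.909 in DKO K1. In input, Kat2a had 222 and 228 counts in control and 84 and 148 in DKO (log2 fold change -0.88, edgeR adjusted p = 0.0205), and Kat2b had 359 and 343 against 118 and 114 (-1.51, adjusted p = 0.000632). The 10 epithelial markers summed to 6848 to 8341 CPM (counts per 1000000 after TMM scaling) in input, 5164 to 9745 in control pulldowns and 4091 to 15183 in DKO pulldowns. The 16 leukocyte markers summed to 147 and 148 CPM in control input and 94.8 and 112 in DKO input. Their sums were 58.5 to 75.5 CPM in control pulldowns and 85.1 to 137 in DKO pulldowns. They did not move as one: of 13 tested in input, 7 were called lower and 2 higher in DKO, from -1.12 for Cd3g to 2.74 for Csf1r. Of all genes 17.1% were lower and 18.8% higher there. The 12 stromal and vascular markers summed to 3.34 to 12.6 CPM in input, 4.94 to 43.3 in control pulldowns and 38.8 to 215 in DKO pulldowns. The part of these differences in the results below was not tested.

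**Figure D1:**
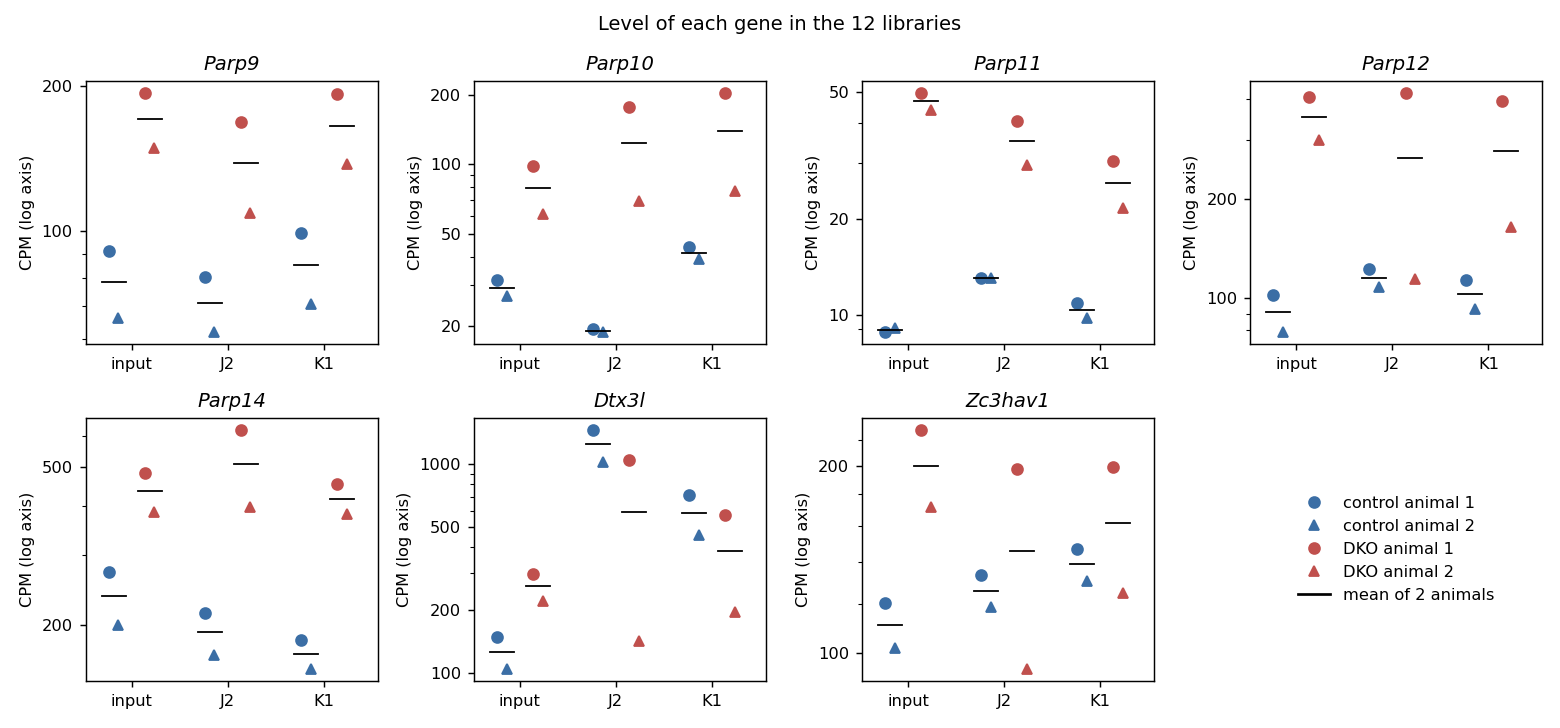
Level of each of the 7 genes in all 12 libraries, in CPM on a log axis; blue is control, red is DKO, circles are animal 1, triangles animal 2, and black bars the mean of 2 animals. In input the DKO animals lie above the control animals for each of the 7, a share that was not computed over all genes. Dtx3l has its highest level, 1461 CPM, in the first control J2 library, and 1022 CPM in the second.

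In input RNA the level of all 7 genes was higher in both DKO animals than in both control animals. The share of all genes without such overlap was not computed. Over all 15088 genes tested 35.9% differed between the genotypes, 18.8% of the genes tested being higher and 17.1% lower in DKO, and since the choice of the genes rests on this contrast nothing is read from their count. The median of their log2 fold changes was 1.16, with a median of 0.00 over all genes. Set beside 36 interferon reference genes, 35 of which rose, the 7 lay towards the weak end of a range that ran to 6.35 for Isg20, an interferon-induced exonuclease. The list was chosen for weak fold changes, so this place is a description that follows in part from the choice. The weakest of the 43 was Psmb8, a subunit of the immunoproteasome (-0.12). Next came Zc3hav1 (0.89) and Parp14 (0.92), which lay within a standard error of each other. Their order turned without the second control animal (0.76 and 0.71), and both were at 1.07 without the second DKO animal. Dtx3l, named in the choice as among the weakest, stood at 1.08, rank 5 of the 43 from the weakest. In these bulk samples, more cells of a type and more RNA per cell cannot be told apart.

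**Figure D2:**
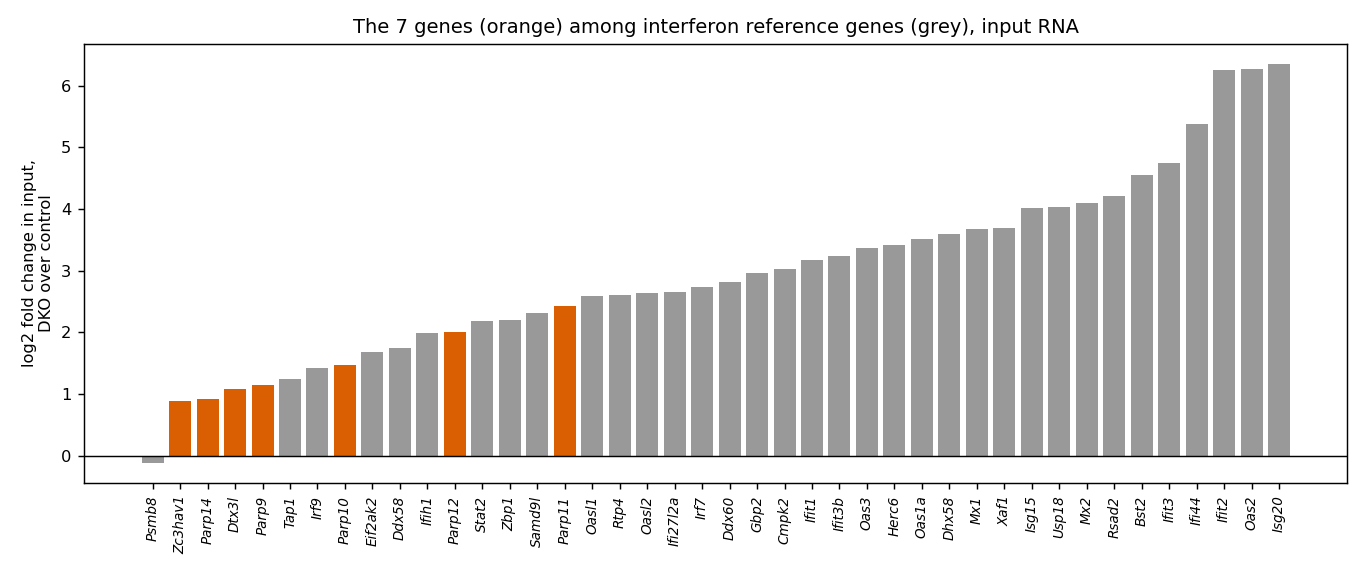
Log2 fold change of DKO over control in input for the 7 genes (orange) and 35 of the interferon reference genes (grey), ordered from weakest to strongest. The orange bars run from 0.89 for Zc3hav1 to 2.43 for Parp11. All lie in the weaker part of the order, which follows in part from how the genes were chosen.

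Per kilobase of exon, the level in control input was highest for Parp14 (25.4 CPM per kb), followed by Parp12 (22.7), Dtx3l (22.1), Zc3hav1 (17.1) and Parp9 (16.2). The animals of neighbouring genes in this order overlapped. Parp10 (6.85) and Parp11 (1.27) lay lower without overlap. In DKO input Parp12 stood first at 88.4 CPM per kb, clear of Parp14 (46.7), and Parp11 stayed last at 6.67. In the control pulldowns Dtx3l led by far, with 217 CPM per kb in J2 and 102 in K1, ahead of Parp12 with 28.9 and 25.9. In the DKO pulldowns Dtx3l (104 in J2, 67.0 in K1) and Parp12 (66.5 and 69.8) overlapped, and Parp11 was last in each (5.00 and 3.71).

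Parp11, an enzyme linked to the nuclear envelope and to turnover of the interferon receptor, had the lowest level and the steepest rise of the 7 in input. It lies at chr6:127446840-127494261 on the plus strand (GRCm38). The 250 bases before its start are shown because they hold a match to the core of the interferon-stimulated response element, the site bound by STAT and IRF factors after interferon. The sequence, from RefSeq on GRCm38.p6 at chr6:127446590-127446839, plus strand, has that match in capitals.
Parp11 promoter: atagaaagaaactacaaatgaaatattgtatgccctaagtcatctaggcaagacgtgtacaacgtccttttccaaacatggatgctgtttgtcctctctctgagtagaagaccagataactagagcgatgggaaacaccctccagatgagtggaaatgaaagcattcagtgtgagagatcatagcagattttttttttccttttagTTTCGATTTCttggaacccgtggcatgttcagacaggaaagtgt
The motif searched was GAAANNGAAA on both strands, in which N is any base. The match reads TTTCGATTTC on the plus strand, begins 44 bases before the start and spans chr6:127446796-127446805. A match to the STAT site TTCNNNGAA, TTCTTGGAA at chr6:127446803-127446811, overlaps it by its first bases. Windows of 300 bases from 250 before to 50 after the start were given for 4 of the 7 genes, namely Parp11, Parp12, Dtx3l and Zc3hav1. Neither set of letters occurs in the windows of the last 3, nor in that of a second Parp11 start. Of 32851 promoter windows of all genes 3.44% held the first motif and 8.30% the second. Of the 31 windows of interferon reference genes 45.2% held the first and 19.4% the second.

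Parp11 read 8.82 and 9.07 CPM in control input and 49.8 and 43.9 CPM in DKO input, where each library had 598 counts. Both DKO animals lay far above both controls, by 2.43 on the log2 scale (SE 0.14). In J2 it read 13.0 CPM in both control animals and 40.8 and 29.5 CPM in DKO. In K1 it read 10.9 and 9.76 CPM in control and 30.4 and 21.7 CPM in DKO. Both pulldowns were thus higher in DKO without overlap, by 1.48 on the log2 scale for J2 (SE 0.33, edgeR adjusted p = 0.0485) and 1.52 in K1 (SE 0.30, adjusted p = 0.0129).

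Parp12, a zinc-finger PARP that restrains several RNA viruses and is found at the Golgi, lies at chr6:39086410-39118349 on the minus strand. It read 102 and 79.0 CPM in control input and 405 and 301 CPM in DKO input, a description of 2.00 on the log2 scale (SE 0.20). J2 libraries held 123 and 108 CPM in control, and 417 and 114 CPM in DKO. Here the genotypes overlapped, since the second DKO animal lay between the controls (log2 fold change 1.22, SE 0.63, edgeR adjusted p = 0.225). In K1 it read 114 and 93.1 CPM in control against 393 and 164 in DKO. That difference of 1.59 (SE 0.40) had an adjusted p of 0.0260, and again the first DKO animal was the high one.

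Parp14, a large PARP with macrodomains that bind ADP-ribose and a known cofactor of STAT6, lies at chr16:35832874-35871544 on the minus strand. It was the most abundant of the 7 in input by CPM, with 272 and 200.0 in control and 483 and 386 in DKO (log2 fold change 0.92, SE 0.19). With J2 the level was 215 and 168 CPM in control and 621 and 397 CPM in DKO. In K1 the values were 184 and 155 CPM against 453 and 380. The estimates were 1.45 in J2 (SE 0.48, edgeR adjusted p = 0.0960) and 1.49 in K1 (SE 0.30, adjusted p = 0.0130), both above that of input. The excess in J2 was 0.55 (SE 0.53), was not tested, and concerns a gene chosen for its weak fold change.

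Parp10, a mono-ADP-ribosyltransferase first described as a partner of MYC, lies at chr15:76231174-76243441 on the minus strand. Of its exons 4.80% also belong to Plec on the same strand, so a share of its reads could be split or lost in counting. It read 31.6 and 27.0 CPM in control input and 98.0 and 61.0 CPM in DKO input (1.48 on the log2 scale, SE 0.22). In J2 it read 19.5 and 18.8 CPM in control and 177 and 69.5 CPM in DKO. In K1 it read 43.8 and 39.1 CPM against 203 and 76.4. The first DKO animal stood well above the second in both pulldowns, and both stood above both controls. The log2 fold change reached 2.71 with J2 (SE 0.49, edgeR adjusted p = 0.0355) and 1.92 in K1 (SE 0.40, adjusted p = 0.0151). The J2 value was the largest of the 7, also with any 1 animal left out. Without the first DKO animal the K1 value was 1.13, below those of Parp14 (1.41) and Parp11 (1.32).

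Zc3hav1, which encodes ZAP, lies at chr6:38305286-38354603 on the minus strand. It read 121 and 102 CPM in control input and 229 and 172 CPM in DKO input, which is 0.89 on the log2 scale (SE 0.17). In J2 libraries it stood at 133 and 119 CPM in control and 198 and 94.4 CPM in DKO. In K1 the values were 147 and 131 CPM against 199 and 125. In both pulldowns the second DKO animal lay below both controls, so the genotypes overlapped. The differences of 0.25 in J2 (SE 0.44, edgeR adjusted p = 0.710) and 0.40 in K1 (SE 0.29, adjusted p = 0.337) did not pass.

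Parp9 and Dtx3l are a head-to-head gene pair whose products act together. Parp9 lies at chr16:35938470-35972605 on the plus strand and Dtx3l at chr16:35926511-35939151 on the minus strand. Their starts are 681 bp apart and their exons share 458 bp on opposite strands, which is 9.40% of the exon length of Parp9 and 8% of that of Dtx3l. The counts were made without strand, so reads in this stretch cannot be assigned to one of them. Parp14 lies 54966 bp from Dtx3l with no protein-coding gene between them.

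Parp9, a macrodomain protein that binds DTX3L, read 91.2 and 66.3 CPM in control input and 193 and 148 CPM in DKO input (log2 fold change 1.16, SE 0.19). The J2 level was 80.4 and 61.9 CPM in control and 168 and 109 CPM in DKO. In K1 it read 99.2 and 70.9 CPM against 192 and 138. The DKO animals were higher in each kind of library. The difference was 1.01 in J2 (SE 0.37, edgeR adjusted p = 0.122) and 1.14 in K1 (SE 0.29, adjusted p = 0.0290).

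Dtx3l, the ubiquitin ligase of the pair, had higher levels in control pulldowns than in any input library. It read 148 and 105 CPM in control input and 300 and 222 CPM in DKO input (log2 fold change 1.08, SE 0.21). In J2 it read 1461 and 1022 CPM in control, and 1043 and 142 CPM in DKO. In K1 it read 712 and 460 CPM in control, and 570 and 197 CPM in DKO. In both pulldowns the first DKO animal lay among the controls and the second far below them. The differences of -1.07 in J2 (SE 0.97, edgeR adjusted p = 0.460) and -0.46 in K1 (SE 0.49, adjusted p = 0.521) did not pass. Without the first DKO animal they were -3.05 and -1.33, and without the second they were -0.19 and 0.12. Each of these fits holds 1 DKO animal, so sizes alone are given.

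**Figure D3:**
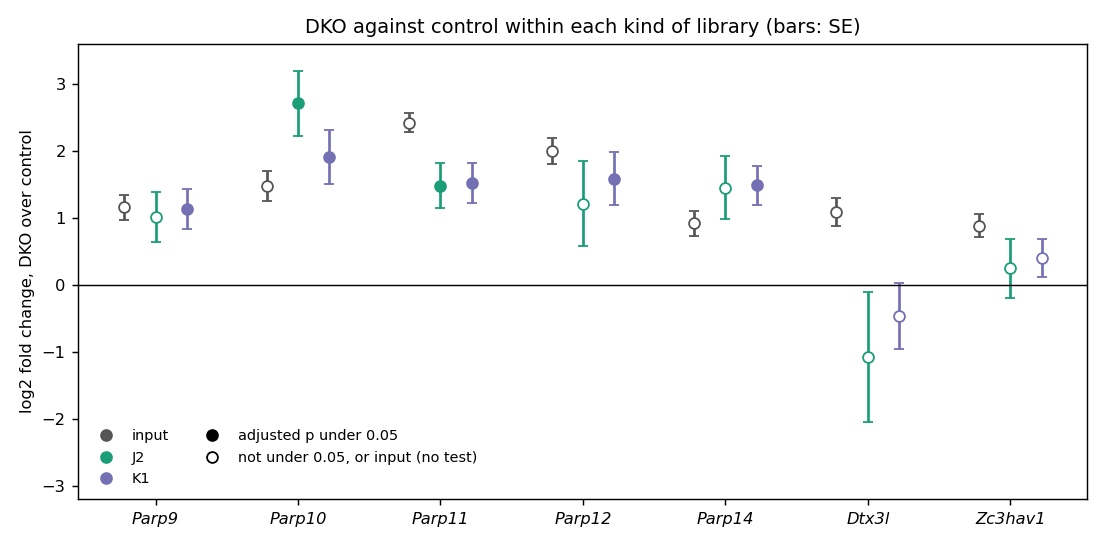
Log2 fold change of DKO over control with its standard error, for each gene in input (grey), J2 (green) and K1 (purple). Filled points passed an edgeR adjusted p of 0.05, and input values are shown without a test. Dtx3l, at -1.07 in J2 and -0.46 in K1, is the one gene with estimates below 0.

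Of the 7 genes, 2 were called higher in DKO in J2, Parp10 and Parp11, and none lower, where 12.2% of all 13181 genes passed, 6.02% upward and 6.16% downward. In K1, 5 were called higher, Parp9, Parp10, Parp11, Parp12 and Parp14, and none lower, where 27.1% of 12888 genes passed, 13.2% upward and 13.9% downward. The medians of the 7 were 1.22 in J2 and 1.49 in K1, with 0.031 and -0.022 over all genes. The list was chosen by fold changes in these same animals, and the p-values of Parp14 and Dtx3l are not independent of that choice. Nothing is therefore read from these counts of calls, which also changed when single animals were left out. In J2, Parp10 was at 2.69 and 2.63 without the first and the second control animal (SE 1.21 in each, 0.49 with all animals). Parp11 was at 1.43 and 1.42, and neither gene kept its call. In K1 the calls were lost without the second control animal, and those other than Parp10 (1.99) without the first. Fits that leave out a DKO animal hold 1 DKO animal, so sizes alone are given. Without the first, J2 gave 0.70 for Parp9, 1.94 for Parp10, 1.26 for Parp11 and 0.063 for Parp12. Parp14 was then at 1.13, Zc3hav1 at -0.33 and Dtx3l at -3.05. Without the second, the J2 values were 1.30, 3.27, 1.70, 1.91, 1.76, 0.71 and -0.19 in the same order. In K1, Dtx3l was at -1.33 and 0.12, and Zc3hav1 at 0.098 and 0.67, without the first and the second. Scaled to library size alone, Parp11 missed the threshold in J2 (adjusted p = 0.0919) and Parp9 in K1 (0.0643). DESeq2 called Parp14 in J2 as well (adjusted p = 0.0247).

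Pulldown was next compared with input within each genotype, as the change in each gene's share of the scaled counts. None of the 12 libraries is a pulldown without these antibodies. Binding by the antibody and RNA carried over without it therefore cannot be told apart. In control epithelium Dtx3l alone of the 7 was called. Its counts were 1869 and 1457 in input, 21317 and 12639 in J2, and 11552 and 6178 in K1. Animal by animal, J2 exceeded input by 3.30 and 3.28 on the log2 scale and K1 by 2.26 and 2.13. Both controls were alike, and the fitted enrichment was 3.30 in J2 (SE 0.84, edgeR adjusted p = 0.0213) and 2.13 in K1 (SE 0.46, adjusted p = 0.00482). Of all genes tested 29.8% were called in J2 against input, 15.2% upward and 14.6% downward, and 39.8% in K1 against input, 19.7% upward and 20.1% downward, so 1 of 7 lies near the background. Without the first control animal the values were 3.30 (adjusted p = 0.376) and 2.04 (0.142), and without the second 3.32 (0.400) and 2.21 (0.123). The size of the enrichment thus hardly moved while the call was lost in fits that kept 1 control animal. Those fits pool the spread over both genotypes, so the DKO animals enter it too.

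In DKO epithelium the 2 animals disagreed on Dtx3l. J2 exceeded input by 1.80 in the first animal and lay below it by -0.65 in the second. For K1 the values were 0.93 and -0.18. The second animal had 462 Dtx3l counts in J2 and 435 in K1, beside 3031 in its input. The fitted values of 1.21 in J2 (SE 0.78, edgeR adjusted p = 0.272) and 0.47 in K1 (SE 0.44, adjusted p = 0.433) did not pass. Without the first DKO animal they were -0.76 and -0.33, and without the second 1.83 and 0.84.

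**Figure D4:**
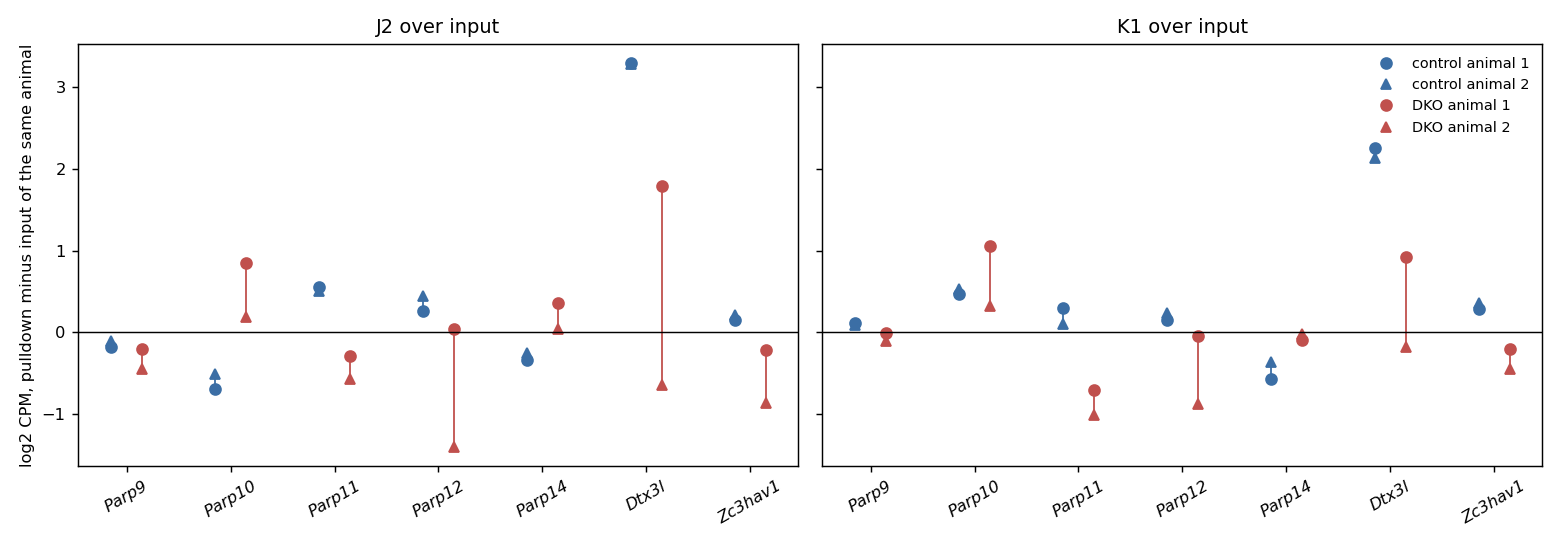
Pulldown minus input of the same animal, in log2 CPM, for J2 (left) and K1 (right); blue is control, red is DKO, circles animal 1 and triangles animal 2. Control animals nearly coincide for most genes, Dtx3l stands at 3.30 and 3.28 in control J2, and its DKO animals are spread from 1.80 to -0.65.

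The other 6 genes stayed near their input share in control pulldowns. Their fitted J2 values ran from -0.61 for Parp10 to 0.55 for Parp11, and their K1 values from -0.56 for Parp14 to 0.42 for Parp10. None of these passed in edgeR. In DKO none of the 7 was called by edgeR in J2 against input, nor did any have an unadjusted p under 0.05, where 25.7% of genes passed, 12.2% upward and 13.4% downward. In K1 against input 1 was called, where 35.6% of genes passed, 14.6% upward and 21% downward. This was Parp11, which lay below input by -0.71 and -1.01 in the 2 DKO animals (fitted -0.91, SE 0.22, edgeR adjusted p = 0.0106). Without either control animal its value was -0.94 and -0.93 with adjusted p of 0.0606 and 0.0605. With the animal as a block, Parp10 was called too in that comparison (0.63, adjusted p = 0.0328), and it was called without a filter on low counts (0.78, adjusted p = 0.0150).

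Scaling and single animals changed several of these small values. Without TMM the J2 value of Parp10 in control was -0.99 (adjusted p = 0.0332) and the values of Zc3hav1 in DKO were -0.87 in J2 (adjusted p = 0.0235) and -0.71 in K1 (0.0188). Parp14 in control K1 was called by DESeq2 (-0.68, adjusted p = 0.0282) and without TMM (-0.79, 0.0170). Over all genes, fits without TMM called 4292 of 15923 in control J2 and 3825 in DKO J2. They called 5965 of 15908 in control K1 and 6234 in DKO K1, and DESeq2 called 5856 in control K1. Fits that leave out a DKO animal hold 1 DKO animal, whose spread is assumed to be like that of the others, so sizes alone are given. Parp14 in control K1 was at -0.57 without the first and -0.55 without the second. Without the first, DKO J2 against input gave -0.68 for Parp11, -1.51 for Parp12 and -0.97 for Zc3hav1, and DKO K1 gave -1.03 for Parp12. Without the second, Parp10 was at 0.88 in DKO J2 and 0.97 in DKO K1. In control J2, Parp10 and Parp11 were at -0.73 and 0.42 without the first and at -0.60 and 0.55 without the second. Parp10 in control K1 was at 0.41 and 0.43.

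The difference of enrichment between the genotypes contains the input contrast that chose the genes, so it is given without a test. For Dtx3l it was -2.09 in J2 (SE 1.09) and -1.66 in K1 (SE 0.63), the lowest of the 7 with both antibodies. It ran from -3.93 without the first DKO animal to -1.48 without the second in J2, and from -2.45 to -1.30 in K1. Parp11 followed with -0.93 (SE 0.33) and -1.04 (SE 0.31). Parp12 gave -0.74 (SE 0.76) and -0.54 (SE 0.52), Zc3hav1 -0.61 (SE 0.54) and -0.62 (SE 0.38), and Parp9 -0.13 (SE 0.47) and -0.16 (SE 0.40). Parp12 was at -1.74 in J2 and -1.13 in K1 without the first DKO animal and at -0.30 and -0.25 without the second. Parp10 and Parp14 had estimates above 0, with 1.27 (SE 0.60) and 0.55 (SE 0.53) in J2 and 0.32 (SE 0.53) and 0.42 (SE 0.38) in K1, and Parp10 in K1 was at -0.24 without the first DKO animal. The median of the 7 was -0.61 in J2 and -0.54 in K1, where all genes had medians of 0.00 and -0.20.

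The neighbouring genes at the Parp9 and Dtx3l locus can be compared within a library, where depth and scaling cancel. Parp9 had 0.614 to 0.667 counts per Dtx3l count in the 4 input libraries, so input gave nearly the same ratio in both genotypes. In control J2 the ratio was 0.0550 and 0.0605, and in control K1 it was 0.139 and 0.154. In DKO it was 0.161 and 0.768 in J2 and 0.337 and 0.701 in K1. The second DKO animal thus had a ratio in its pulldowns slightly above that of input, and the first lay between input and control pulldown. Parp14 per Dtx3l count followed the same order, with 1.61 to 1.91 in input, 0.147 and 0.165 in J2 of the controls, and 0.595 and 2.79 in J2 of the DKO animals.

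The antibodies were also compared with each other, which uses no input library. In control, K1 minus J2 was -1.12 for Dtx3l (SE 0.87, edgeR adjusted p = 0.618) and 1.08 for Parp10 (SE 0.53, adjusted p = 0.438), the extremes of the 7. Animal by animal it was -1.04 and -1.15 for Dtx3l and 1.16 and 1.05 for Parp10. No gene of 14285 was called by edgeR in this comparison (0%), 1808 had an unadjusted p under 0.05, and DESeq2 called 333. With the animal as a block edgeR called 3959 genes, among them Parp10 (1.08, adjusted p = 0.00213) and Dtx3l (-1.13, adjusted p = 0.0253). Parp10 and Dtx3l passed too without either DKO animal, but such fits hold 1 DKO animal, so nothing is read from this. In DKO the values ran from -0.62 for Dtx3l to 0.25 for Parp9, with 0% of genes called by edgeR, 530 genes at an unadjusted p under 0.05 and 3 called by DESeq2. The Dtx3l value there was 0.47 without the first DKO animal. The difference between genotypes ran from -0.89 for Parp10 to 0.50 for Dtx3l. Again 0% of genes were called by edgeR, 506 had an unadjusted p under 0.05, and DESeq2 called 1. Without the first DKO animal the Parp10 difference was -0.96 and the Dtx3l difference 1.57.

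The longest coding transcripts of the 7 genes were searched for inverted repeats, stretches whose arms could pair with each other. With arms of at least 100 bp at 75% identity, 0 such pairs were found in any of the 7, Dtx3l included. Of 13003 genes scanned 0.846% held one. These genes were called higher in J2 against input in control for 46.3% of those tested, and for 16.1% of those without a pair. In K1 the shares were 45.0% and 21.5%. The Dtx3l transcript is 5309 bp long, of which 2788 bp are 3′ UTR, the longest of the 7, ahead of Parp11 with 2526 bp. Parts of it are at least 97% identical over 100 bp to transcripts of other genes, among them Parp9 through the shared exons, Acad10 and 1700008O03Rik. This share of the transcript was 10.3% for Parp9 and slightly more for Dtx3l, 2.04% for Zc3hav1, 1.50% for Parp14, and 0% for Parp10, Parp11 and Parp12.

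Likeness over the 12 libraries (Pearson correlation of log2 CPM, 9369 candidate genes) is a description, since libraries of an animal and of a genotype share depth and state. Among the 7, the 15 pairs without Dtx3l ranged from 0.574 for Parp14 and Zc3hav1 to 0.922 for Parp9 and Parp12. The 6 pairs with Dtx3l ranged from -0.14 with Parp14 to 0.39 with Zc3hav1, and its pair with Parp9 stood at -0.024. Dtx3l was most like Azi2 (0.990), an adaptor of the kinase TBK1, Ralgapa2 (0.977) and Srxn1 (0.977). Parp14 was most like Stat2 (0.973), Cxcl10 (0.970) and Ifit3b (0.970), all induced by interferon, and Parp9 like Duox2 (0.980), Gbp2 (0.978) and Ifit1bl1 (0.977). Parp10 was most like Sbno2 (0.990), Nfkbia (0.986) and Sh3tc1 (0.976), and Parp11 like Cyp11b1 (0.981), Trim30a (0.972) and Mecom (0.972). The genes most like Parp12 included H6pd (0.979) and Cemip2 (0.977). Zc3hav1 was most like Lypd8 (0.963), Hmgcs1 (0.947) and Tm4sf20 (0.943).

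The remaining PARP family had 5 of 10 genes higher in DKO input and 0 lower, where 18.8% of all genes were called higher and 17.1% lower. Their log2 fold changes were 1.31 for Parp8, 1.20 for Parp3, which acts at DNA breaks, 0.65 for Parp4, the vault PARP, 0.51 for Parp16 and 0.43 for Parp6. Parp8 was near the floor, with 13 and 15 counts in control input and 41 and 24 in DKO input. The calls of Parp8, Parp6 and Parp16 held in 4, 2 and 2 of 9 alternative settings, and that of Parp4 was lost without the second control animal. Parp1, the main PARP of DNA repair, was at -0.49 and did not pass. The median of the 10 was 0.35. In the pulldowns, where 6.02% of all genes were higher and 6.16% lower in J2 and 13.2% and 13.9% in K1, Parp3 was higher in DKO in J2 (2.24) and K1 (2.07), and Tiparp was lower in J2 (-2.08). In control, where 15.2% of all genes were enriched over input in J2 and 19.7% in K1, Parp6 and Tnks, a tankyrase, were enriched in J2 (2.36 and 1.53) and K1 (0.72 and 0.74), and Parp1 in K1 (1.00). In DKO, where the shares were 12.2% and 14.6%, Parp1 was enriched with both antibodies (1.43 in J2, 1.46 in K1) and Parp6 in J2 (0.70). Tiparp lay below input in DKO (-1.83 in J2, -1.62 in K1), where the animals had 17 and 21 counts in J2 and 36 and 9 in K1. Of the enzymes that remove ADP-ribose, 1 of the 5 tested rose in DKO input, Adprh (0.68), where 18.8% of all genes did, and it lost its call without the first control animal. Parg, the main poly(ADP-ribose) hydrolase, was enriched over input in control J2 (0.72) and K1 (0.82). Adprhl2 was enriched in control K1 (1.09) and in DKO J2 (1.86) and K1 (1.51), and was higher in DKO than in control in J2 (1.87). Macrod1 was lower in DKO than in control in K1 (-1.47) and lay below input in DKO K1 (-1.20), where the animals had 15 and 6 counts.

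Among the 8 partners and relatives of ZAP and DTX3L, 2 rose and 2 fell in DKO input, where 18.8% of all genes rose and 17.1% fell. Trim25, a ubiquitin ligase that serves ZAP, rose by 1.36 and N4bp1, an endoribonuclease, by 0.86. Dtx4 fell by 0.80 and Dtx1 by 0.88, both Deltex ubiquitin ligases, and Dtx1 lost its call with DESeq2 and without the second control or the second DKO animal. Zc3hav1l, a paralog of the ZAP gene, showed a fall in DKO pulldowns, by 2.42 in J2 and 2.50 in K1, and was enriched over input in control by 2.82 in J2 and 1.72 in K1. It had 10 and 8 counts in the DKO J2 libraries and 5 and 2 in DKO K1. Its input difference of 0.13 did not pass (edgeR adjusted p = 0.784). Dtx4 was likewise enriched in control (1.63 in J2, 1.54 in K1) and lower in DKO pulldowns (-1.74 in J2, -1.60 in K1). Dtx3, with 10 to 24 counts in each pulldown library, was higher in DKO pulldowns (2.86 in J2, 2.25 in K1) and Khnyn, a nuclease that works with ZAP, in K1 (0.90). N4bp1 was enriched over input in control J2 (1.23), and Trim25 (1.04) and Dtx1 (1.30) in control K1. In DKO, Khnyn (1.42 in J2) and Dtx1 (1.59 in J2, 0.98 in K1) were enriched over input with both antibodies, and Dtx3 in J2 (1.50).

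The calls of these lists also depended on which animals were kept. None of the called estimates changed sign in any of the 9 settings. Leaving out an animal also changes the pooled spread, so a lost call need not be a changed effect. Every J2 call between genotypes named here, and every pulldown against input in control, was lost when either control animal was left out. So were the K1 calls between genotypes, other than Parp3, which was called in all 9 settings, and Dtx4, lost without the first control animal alone. In DKO the K1 values of Parp1, Tiparp, Adprhl2 and Khnyn against input were called in all 9 settings, and the other calls against input were lost when either control animal was left out. Among those in DKO, the J2 calls of Dtx1 and Dtx3 and the K1 calls of Dtx1 and Macrod1 were also lost without the second DKO animal. The J2 call of Parp6 and the K1 call of Dtx1 were lost without the first. Without TMM the 6 J2 calls between genotypes were lost, as were those of Dtx3 in K1, of Parp1 and Parp6 in control K1, of Dtx4 in control J2, of Parp1, Parp6, Dtx1 and Dtx3 in DKO J2, and of Dtx1 in DKO K1. The calls of Parg in control J2 and Khnyn between genotypes in K1 each held in 3 of 9 settings, and that of Parp6 in DKO J2 in 2. The Dtx3 call in K1 was lost without the second DKO animal as well, and the Khnyn call without the first. Macrod1 in K1 between genotypes missed the threshold with DESeq2 and with the replicate block, Tnks in control K1 with DESeq2 and RLE scaling, and Trim25 in control K1 with RLE scaling.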

How the data were processed

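Per the submitters' processing notes, the tools were FastQC, STAR 2.7.10b, SAMtools 1.17, UMI-tools 1.1.4, HTSeq 2.0.2, DESeq2 1.40.1, edgeR 3.42.2 and deepTools 3.5.2, with the builds mm10 and GRCm38.p4; their roles and the annotation are not given in the sources used here. The authors deposited 1 table of integer counts by gene for each library, made, per the labels, without strand from strand-specific, rRNA-depleted libraries with molecular identifiers. Rows that name no gene were left out. Of 48526 rows, 48144 matched GENCODE M21 without the version suffix.

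Counts were tested here in R 4.3.3 by edgeR's quasi-likelihood test (version 4.0.16, TMM, filterByExpr minimum 10, Benjamini-Hochberg adjusted p under 0.05 over all genes tested). Genotypes were compared within each kind of library (4 libraries), and kinds of library within genotypes in fits of 8. SE is the log2 fold change divided by the root of F. CPM used TMM over all 12 libraries, and log2 CPM a prior count of 2. Inverted repeats and near-identical copies were searched with blastn 2.17.0+.

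The 7 genes, the reference lists and the tests were chosen with earlier results of these data known. The rule for named genes was all 7, Kat2a and Kat2b, the PARP, ADP-ribose and partner lists, up to 3 extremes of the interferon and marker lists, and for each of the 7 the 3 genes most correlated over the libraries (mean of at least 50 counts, no Gm or Rik symbols). Alternatives were DESeq2 1.42.0, RLE scaling, no TMM, no filter, each animal left out, and a replicate block. Libraries of an animal are paired by its label: deviations from group means correlated at 0.383 to 0.731 across genes within animals. A few items are not reported here.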

Additional observations from a re-analysis of the deposited data

Results flagged for a closer look

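For each gene the log2 differences between libraries of the same animal were looked at, 21 combinations in all. In 8 of 21, both control animals lay on one side of 0 and both DKO animals on the other. The share over all genes was not computed, and differences of an animal share libraries, so nothing is read from this count. Each difference below is DKO minus control of the mean pulldown minus input of 2 animals each. It contains the input contrast that chose the genes, and the difference was not tested. For J2 against input it was 1.12 for Parp10 and 0.50 for Parp14, where DKO lay above input and control below. It was -0.96 for Parp11 and -0.72 for Zc3hav1, where control lay above input and DKO below. For K1 against input it was -1.06 for Parp11, -0.65 for Zc3hav1, -0.65 for Parp12 and -0.17 for Parp9, again with control above and DKO below. The second DKO animal lay farther from input than the first for Parp11 and Zc3hav1 with both antibodies, at -0.57 and -0.86 in J2. The smallest of these values, that of Parp9, rests on DKO animals at -0.0094 and -0.11. Dtx3l, with the widest difference between genotypes, is not among the 8, because its first DKO animal stayed above input.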

How the results depend on the processing

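With 2 animals per genotype, counts of calls depend on single animals. Leaving out each animal in turn gave 177 to 8635 called genes (0 to 6 of the 7) for DKO against control in J2 and 1149 to 5819 (0 to 6) in K1. For J2 against input it gave 0 to 10139 (0 to 3) in control and 337 to 7791 (0 to 3) in DKO. For K1 against input it gave 281 to 9189 (0 to 3) and 3005 to 5970 (0 to 2). For K1 against J2 it gave 0 to 5033 (0 to 2) in control, 0 to 202 in DKO, and 0 to 1227 (0 to 1) for the difference. The arm left with 1 sample is assumed to vary like the other. DESeq2 called 2884 genes for DKO against control in J2 and no filter 4273, against 1606. No filter gave 66 and 8 genes for K1 against J2 in control and DKO, where edgeR called 0 and DESeq2 333 and 3, and 1 for the difference. DESeq2 called 2 of the 7 in control K1 against input. No TMM called 1 of the 7 in DKO against control in J2, 2 in control J2, 1 in DKO J2, 2 in control K1 and 2 in DKO K1 against input, and no filter 2 in the last.

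Without TMM the median of all genes moved to -0.13 in input, -0.06 in J2 and -0.39 in K1 between genotypes, and for pulldown against input to -0.44 (control J2), -0.26 (DKO J2), -0.23 (control K1) and -0.48 (DKO K1). The share of calls that were higher fell to 42.1% from 52.4% in input, 32.7% from 49.4% in J2, 27.4% from 48.6% in K1, 34.6% from 51.1% and 21.1% from 47.6% in J2 against input, and 35.9% from 49.6% and 22.3% from 41.1% in K1 against input, control first.

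With the replicate block (the animal) K1 against J2 had 3959 genes and 2 of the 7 called in control, 8 genes in DKO and 1 for the difference, and DKO K1 against input had 2 of the 7. Between genotypes the replicate number joins different animals (correlations 0.00 in input, -0.17 in J2 and -0.18 in K1), and that block left 1 of the 7 called in J2. It changed no other count of the 7.

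Estimates that changed sign were small or rested on the DKO animals. Leaving out an animal gave -0.33 to 0.71 for Zc3hav1 in J2 and -1.33 to 0.12 for Dtx3l in K1 between genotypes. For DKO J2 against input it gave -0.068 to 0.39 for Parp14, -0.76 to 1.83 for Dtx3l and -1.51 to 0.068 for Parp12. For Dtx3l in DKO it gave -0.33 to 0.84 for K1 against input and -0.87 to 0.47 for K1 against J2. Without TMM, control J2 against input gave Parp12 -0.024 and Zc3hav1 -0.19, DKO J2 gave Parp14 -0.13, and control K1 gave Parp9 -0.20, Parp11 -0.10 and Parp12 -0.12. DESeq2 and RLE scaling both gave Parp9 -0.089 and Parp12 -0.011 in control K1. The DKO pulldowns were the shallowest libraries, and the lowest count among the 7 was 48, of Parp11 in DKO K1.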
